A study of Mus musculus with 6 samples.

Results

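The genes described here are 8 components of peptide hormone signalling through the stimulatory G protein Gs in mouse hepatic stellate cells. They are the receptor genes Vipr1, Pth1r and Calcrl, the receptor activity-modifying protein genes Ramp1, Ramp2 and Ramp3, the peptide gene Adm, and Crhbp, which encodes a secreted binding protein for corticotropin-releasing hormone. All 8 were found by symbol among the 24940 genes of the deposited exon count table, and 7 of the 8 passed the filter on low counts, Ramp3 being left out. They were chosen by their function and by the forskolin and vehicle values of these same libraries. That contrast is therefore given for them as a description, with no test.

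The libraries hold polyadenylated RNA of primary stellate cells, the retinoid-storing pericytes of the liver, from wild-type female C57BL/6JBomTac mice. There were 3 forskolin libraries and 3 vehicle libraries, each lettered A, B and C. Forskolin (5 µM), which switches on adenylyl cyclase directly, or dimethyl sulfoxide at a dilution of 1 in 1000, was given on day 2 after isolation. The medium was replaced at 3 h, and the cells were then kept for another 21 h, so RNA was taken 24 h after treatment began. Both groups share the day after isolation, the culture times and the medium change. Nothing in the labels says whether the letters stand for separate animals or cultures, so the spread between libraries may be technical.

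Vipr1, Pth1r and Calcrl belong to class B of the G protein-coupled receptors, which bind peptide hormones with a large extracellular domain. On binding, they activate Gs and adenylyl cyclase, and the cyclic AMP formed activates protein kinase A, which phosphorylates the transcription factor CREB. Forskolin enters this pathway below the receptors. Calcrl reaches the cell surface with a RAMP partner, and the partner sets the ligand preference: RAMP1 gives the receptor for calcitonin gene-related peptide, and RAMP2 or RAMP3 give the adrenomedullin receptors. Vipr1 binds vasoactive intestinal peptide and PACAP, and Pth1r binds parathyroid hormone and its related protein.

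Deposited totals per library were 13001358 to 15090262.5 counts for vehicle and 10890193 to 12954310 for forskolin, each forskolin library being shallower than each vehicle library. Levels are given as CPM on TMM-scaled library sizes or, where genes are compared, as RPKM, which is CPM per kb of exon. The root mean square difference in log2 CPM between libraries was 0.23 to 0.24 among vehicle libraries, 0.28 to 0.32 among forskolin libraries and 0.58 to 0.62 between groups. The 5 cyclic AMP response genes used to check the labels, Crem, Nr4a1, Pde4d, Pde4b and Sik1, were all higher in every forskolin library. The 10 stellate cell markers all passed the count filter and summed to 4234 to 4462 CPM with vehicle and 4296 to 4459 CPM with forskolin. Markers of hepatocytes summed to at most 1.18 CPM in any library, and those of macrophages and other leukocytes to between 34.6 and 39.3 CPM. In the fit across 13357 genes, 49.9% passed the threshold (edgeR quasi-likelihood test, Benjamini-Hochberg adjusted p under 0.05), 24.8% higher and 25.1% lower with forskolin. By that test 6 of the 10 stellate markers rose and 3 fell, among them Hgf (198 to 401 CPM) and Des (323 to 182 CPM).

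Markers of other cell types did not all stay level. Cholangiocyte markers summed to 137 to 151 CPM with vehicle and 392.1 to 427 CPM with forskolin, mostly Spp1 (72.5 to 372 CPM). Sox9 also rose (1.53 to 3.48 CPM), while Krt19 fell (71.3 to 35.1 CPM) and Krt7, Epcam and Cftr were near 0. Schwann and nerve markers summed to 21.2 to 23.6 CPM and 122 to 149 CPM, mostly Tubb3 (21.3 to 136 CPM). S100b, the other one tested, also rose (0.145 to 1.37 CPM), while Th was at 0 and Sox10 at 0 and 0.0548 CPM. Mesothelial and portal fibroblast markers summed to 4.49 to 7.38 CPM and 7.93 to 9.53 CPM, with Thy1 the 1 of 3 tested that rose. Neither Thy1 nor S100b would have passed the count filter on its vehicle libraries alone. Of the leukocyte markers 3 were tested, of which Cd68 and Csf1r rose and Lyz2 fell. These marker genes were picked out after their values were seen, and their part in the levels of the 8 genes was not tested.

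The promoters of the 6 genes whose libraries did not overlap between groups are shown because cyclic AMP acts on many genes through the cyclic AMP response element, TGACGTCA, or its shorter core, TGACG. The sequences are the 250 bases before the start of the counted transcript, from RefSeq on GRCm38.p6, written 5′ to 3′ on the strand of the gene. Capitals mark the core on either strand.
Crhbp, chr13:95444832-95445081, minus strand: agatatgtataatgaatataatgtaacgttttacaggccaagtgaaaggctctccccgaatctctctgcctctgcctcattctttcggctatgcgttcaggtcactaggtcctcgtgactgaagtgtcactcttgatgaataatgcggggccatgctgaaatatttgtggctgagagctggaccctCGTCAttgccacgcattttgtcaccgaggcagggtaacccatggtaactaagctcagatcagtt
Ramp3, chr11:6658283-6658532, plus strand: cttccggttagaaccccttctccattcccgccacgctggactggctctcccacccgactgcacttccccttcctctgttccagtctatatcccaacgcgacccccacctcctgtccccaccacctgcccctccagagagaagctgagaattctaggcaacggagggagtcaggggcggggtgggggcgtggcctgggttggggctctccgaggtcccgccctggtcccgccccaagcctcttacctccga
Pth1r, chr9:110743687-110743936, minus strand: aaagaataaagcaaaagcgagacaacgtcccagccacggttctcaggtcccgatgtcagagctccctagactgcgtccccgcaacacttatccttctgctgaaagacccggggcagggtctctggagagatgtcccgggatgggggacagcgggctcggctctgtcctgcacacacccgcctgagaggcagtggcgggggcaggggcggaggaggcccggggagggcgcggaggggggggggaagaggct
Adm, chr7:110627407-110627656, plus strand: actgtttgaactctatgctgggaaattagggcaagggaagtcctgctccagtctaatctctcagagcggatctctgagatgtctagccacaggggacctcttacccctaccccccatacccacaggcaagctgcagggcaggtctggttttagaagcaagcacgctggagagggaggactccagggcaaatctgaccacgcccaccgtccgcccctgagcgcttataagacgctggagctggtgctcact
Calcrl, chr2:84425267-84425516, minus strand: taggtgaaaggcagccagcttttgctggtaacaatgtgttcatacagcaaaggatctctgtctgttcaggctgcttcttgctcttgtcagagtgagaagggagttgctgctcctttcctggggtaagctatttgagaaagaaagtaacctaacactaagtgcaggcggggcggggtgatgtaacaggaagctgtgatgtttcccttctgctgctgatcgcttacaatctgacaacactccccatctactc
Vipr1, chr9:121642466-121642715, plus strand: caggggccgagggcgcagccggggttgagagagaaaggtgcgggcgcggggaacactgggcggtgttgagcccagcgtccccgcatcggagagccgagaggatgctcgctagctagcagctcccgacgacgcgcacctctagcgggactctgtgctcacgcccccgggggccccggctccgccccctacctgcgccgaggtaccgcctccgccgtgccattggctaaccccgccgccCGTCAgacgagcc

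The full element occurred in none of the 9 start regions that RefSeq lists for 7 of the 8 genes, and in 1.55% of the 32851 regions of the same length in the whole table. The core occurred in 17.8% of all regions. Crhbp held it 64 bases and Vipr1 13 bases before the start, both on the opposite strand (read as CGTCA). A Pth1r start that lies 3459 bases upstream of the counted one held it 161 bases before the start. Crhbp was higher and Vipr1 lower with forskolin. The core was not in the windows of Ramp3, Adm, Calcrl and Ramp1. Whether the core bears on any change with forskolin was not tested. The windows differed in composition: GC content was 72.8% for Vipr1, 65.6% for Pth1r, 65.2% for Ramp3, 56.8% for Adm, 48.4% for Calcrl and 47.2% for Crhbp, around a median of 52.4% for all regions.

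Across the 8 genes, 3 were higher in every forskolin library than in any vehicle library (Crhbp, Ramp3 and Pth1r), 3 were lower in every one (Adm, Calcrl and Vipr1), and Ramp1 and Ramp2 overlapped. Over all genes tested, 28.8% lay wholly above and 28.3% wholly below, and since the members were selected on this contrast nothing is read from their count. In RNA from whole cultures, fewer cells of a type and less RNA per cell cannot be told apart.

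**Figure D1:**
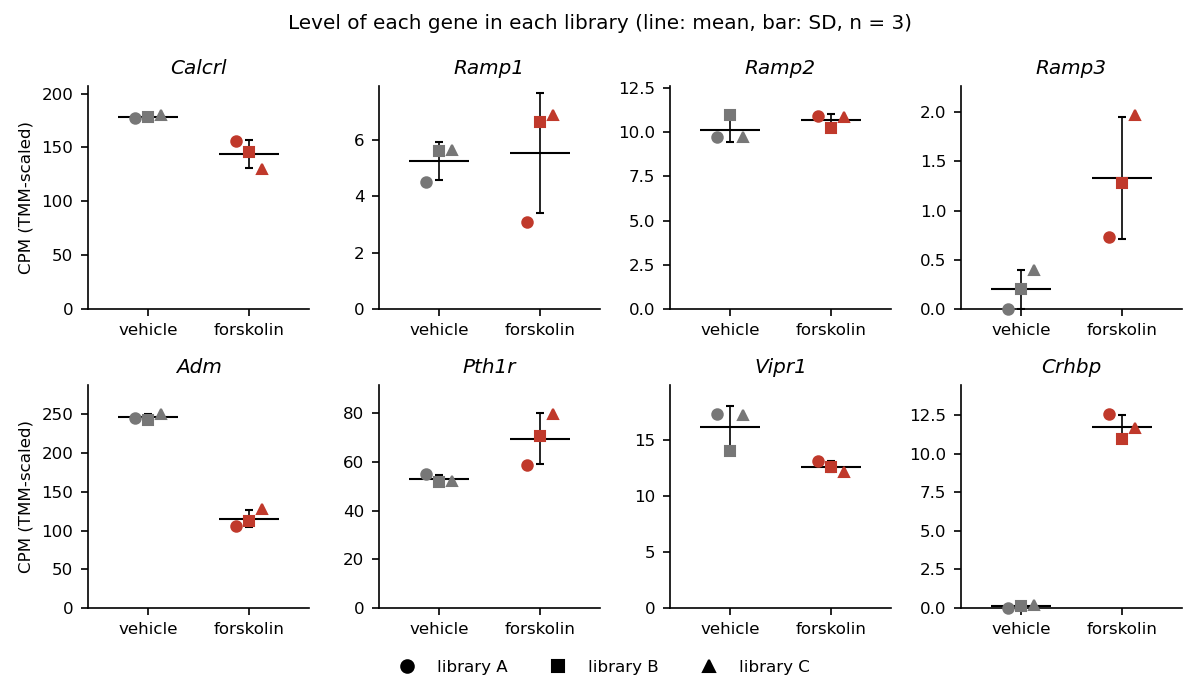
Level of each gene in CPM on TMM-scaled library sizes (vertical axes from 0) in the 3 vehicle (grey) and 3 forskolin (red) libraries, with the mean as a line and the SD as a bar, cut at 0; symbols give the library letter. Crhbp, Ramp3 and Pth1r lie wholly higher with forskolin, Adm, Calcrl and Vipr1 wholly lower, and Ramp1 and Ramp2 overlap.

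Calcrl (mm10 chromosome 2, 84330627 to 84425266, 16 exons), the shared receptor of calcitonin gene-related peptide and adrenomedullin, was at 178, 178 and 180 CPM in vehicle A, B and C. With forskolin it was at 156, 146 and 130 CPM. Vehicle libraries were almost level, and all 3 forskolin libraries lay below them, C lowest. The mean went from 178 ± 1.34 to 144 ± 13.03 CPM (SD, n = 3 each), a log2 fold change of -0.31 (SE 0.05), or 1.24-fold lower.

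Ramp2 (chromosome 11, 101246334 to 101248250, 4 exons), the partner for the main adrenomedullin receptor, was at 9.74, 10.99 and 9.76 CPM with vehicle and 10.9, 10.3 and 10.8 CPM with forskolin. The groups overlapped, and the log2 fold change was 0.07 (SE 0.12). Ramp1 (chromosome 1, 91179822 to 91225196, 3 exons), the partner for the calcitonin gene-related peptide receptor, was at 4.50, 5.63 and 5.67 CPM with vehicle and 3.10, 6.65 and 6.90 CPM with forskolin. Here forskolin A was the lowest of all 6 libraries and forskolin B and C the highest, so the groups overlapped through 1 library. The log2 fold change of Ramp1 was 0.09 (SE 0.23), and without forskolin A it was 0.37 (SE 0.18).

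Ramp3 (chromosome 11, 6658533 to 6677475, 3 exons), the partner for the other adrenomedullin receptor, was barely counted: vehicle A held 0 counts, B 3 and C 5, while forskolin A held 8, B 17 and C 24. Every forskolin library held more than any vehicle library, at levels close to the counting floor. A count of 0 in a library allows up to 3 counts, which is 0.201 to 0.273 CPM here, for counting error only. The ratio of pooled CPM, forskolin over vehicle, was 6.93 (exact 95% Clopper-Pearson interval 3.26 to 17.0, counting error only). It was 4.65 without vehicle A and 12.8 without vehicle C, so single vehicle libraries move it. Ramp3 did not pass the count filter, so it has no value in the fit. Of its exon bases, 8.19% overlap the pseudogene Gm11978 on the opposite strand, and the labels do not state that strand was kept.

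Per kb of exon, Ramp2 was the main partner in all 6 libraries. It made up 81.5% to 86.4% of the summed level of the 3 Ramp genes with vehicle and 74.3% to 87.4% with forskolin. Ramp1 made up 13.6% to 16.1% with vehicle and 8.43% to 16.8% with forskolin. The share of Ramp3 was 0%, 1.10% and 2.34% in vehicle A, B and C and 4.15%, 6.80% and 9.62% in forskolin A, B and C. Only the shares of Ramp3 did not overlap between groups. The level of Calcrl was 2.50 to 2.89 times the Ramp sum with vehicle and 1.63 to 2.28 times with forskolin, again without overlap. Both the shares and this ratio rest on the exon lengths used. For Ramp2 the deposited length was 866 bases, against 1178 exon bases in the matching GENCODE transcript.

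**Figure D2:**
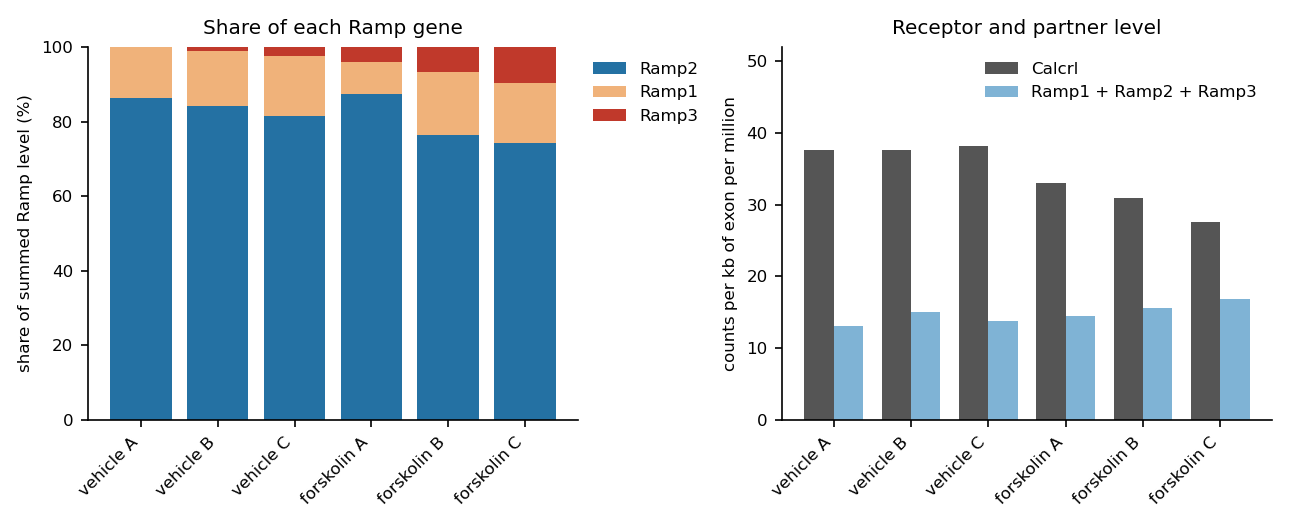
Left, share of each Ramp gene (percent) in the summed length-scaled level of Ramp1, Ramp2 and Ramp3 in each of the 6 libraries. Right, length-scaled level (RPKM, CPM per kb of exon) of Calcrl and of the Ramp sum in the same libraries; Ramp2 is the largest part throughout and the Ramp3 share runs from 0% to 2.34% with vehicle and from 4.15% to 9.62% with forskolin.

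Adm (chromosome 7, 110627657 to 110629820, 4 exons) encodes adrenomedullin, a vasodilator peptide and ligand of Calcrl with Ramp2 or Ramp3. Its level was 246, 242 and 250 CPM in the vehicle libraries and 106, 112 and 128 CPM in forskolin A, B and C. The groups were far apart relative to their spread, 246 ± 3.95 against 116 ± 11.6 CPM (SD, n = 3 each). The log2 fold change was -1.09 (SE 0.06), or 2.13-fold lower. Per kb of exon it ranked 207 of 13357 genes with vehicle and 995 with forskolin. The level of Adm was 4.63 to 4.73 times that of Calcrl with vehicle and 2.32 to 3.36 times with forskolin, so the peptide gene lay further below its vehicle level than the receptor gene.

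Pth1r (chromosome 9, 110722085 to 110743686, 15 exons), the receptor gene for parathyroid hormone and its related protein, was at 54.9, 51.6 and 52.3 CPM with vehicle. In forskolin A, B and C it was at 58.6, 70.6 and 79.6 CPM. All 3 forskolin libraries were above the vehicle ones, forskolin A the least so. Means were 52.9 ± 1.76 and 69.6 ± 10.5 CPM, a log2 fold change of 0.40 (SE 0.08), or 1.32-fold.

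Vipr1 (chromosome 9, 121642716 to 121672954, 13 exons), a receptor gene for vasoactive intestinal peptide, lies on the same chromosome and differed in the opposite direction. Its counts with vehicle were 233.5 (A), 209 (B) and 217.5 (C), against 143.5, 166.5 and 148 with forskolin, or 16.1 ± 1.86 and 12.6 ± 0.483 CPM (SD, n = 3 each). On the CPM scale the groups were narrowly separate, with vehicle B the lowest of its group and forskolin A the highest of the other. Its log2 fold change was -0.35 (SE 0.12), or 1.28-fold lower. Over the alternatives its log2 fold change lay between -0.54, with library size as a covariate, and -0.30, without vehicle A. The level of Pth1r per kb was 6.75 to 8.17 times that of Vipr1 with vehicle and 9.90 to 14.5 times with forskolin.

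Crhbp (chromosome 13, 95431376 to 95444831, 7 exons) had 0.5, 2 and 2 counts in the vehicle libraries, the first rounded to 0 for the fit and the CPM. In forskolin A, B and C it had 138, 145 and 142.5 counts, or 12.6, 10.96 and 11.7 CPM. The forskolin libraries were close to each other, with a coefficient of variation of 6.92%, and vehicle libraries held next to nothing. The ratio of pooled CPM was 120 (95% Clopper-Pearson interval 46.6 to 443). The fitted log2 fold change of 6.78 (SE 0.33) depends on the prior count, and 4 tested genes had a higher one. Crhbp passed the count filter only through its forskolin libraries.

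**Figure D3:**
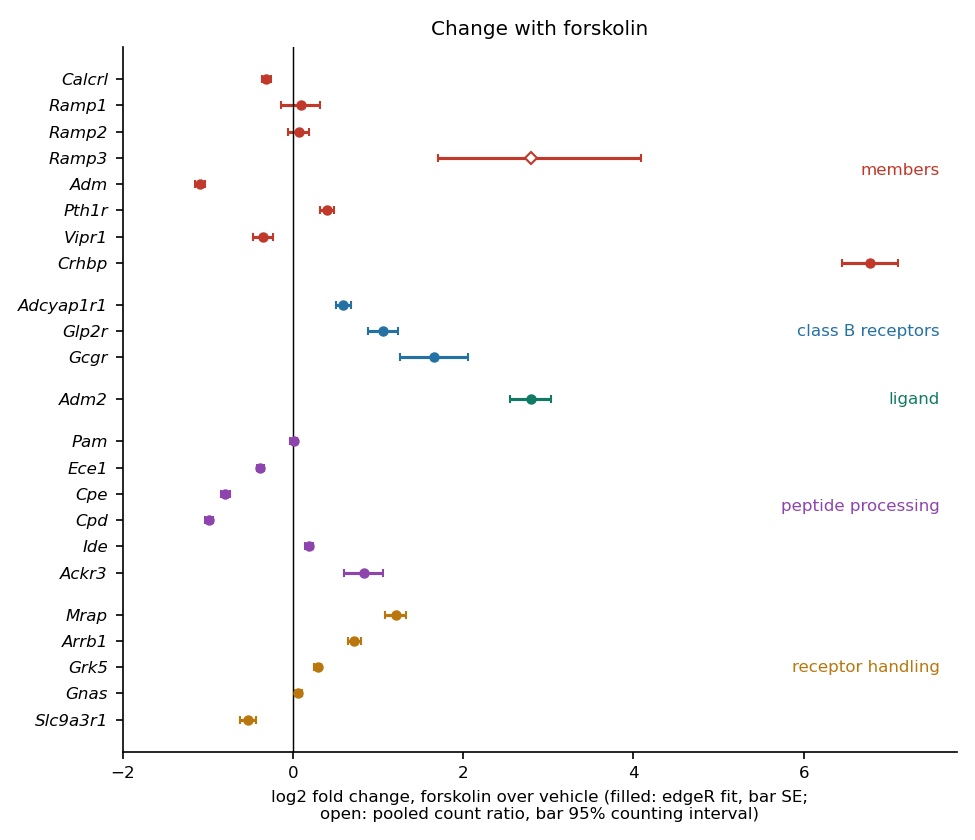
Log2 fold change, forskolin over vehicle (horizontal axis), of the 8 genes and of the other pathway genes named in the text; filled points and bars are the edgeR estimate and its SE. The open diamond is the pooled count ratio of Ramp3 with its 95% counting interval; Crhbp stands furthest to the right at 6.78 and Adm furthest to the left at -1.09.

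Within vehicle libraries the order of length-scaled levels was clear for 6 of the 8 genes. Adm was highest at 177 ± 2.85 RPKM, followed by Calcrl (37.8 ± 0.284), Pth1r (24.0 ± 0.799), Ramp2 (11.7 ± 0.821), Vipr1 (3.30 ± 0.381) and Ramp1 (2.07 ± 0.260; SD, n = 3). None of these neighbours overlapped in any library. Ramp3 (0.163) and Crhbp (0.0581) came last and overlapped each other. With forskolin, Adm was still highest at 83.2 ± 8.34, while Pth1r (31.6 ± 4.77) and Calcrl (30.5 ± 2.76) overlapped. Crhbp stood at 7.02 ± 0.485, below Ramp2 (12.3 ± 0.414) and above Vipr1 (2.58 ± 0.0987), Ramp1 (2.18 ± 0.836) and Ramp3 (1.09 ± 0.512). In these libraries Vipr1 overlapped Ramp1, and Ramp1 overlapped Ramp3.

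Genes whose profiles over the 6 libraries came closest were found by the root mean square difference of log2 CPM, centred on the vehicle mean, among 10833 genes. For Adm these were Clca3a1 and Schip1 (0.0535 and 0.0544), and for Calcrl they were Upf2 and Zfp141 (0.0175 and 0.0234). Ass1 and Aard were closest to Pth1r (0.0431 and 0.0497), and Ube2v2 and Snx16 to Vipr1 (0.0470 and 0.0480). Ramp2 was closest to Dock1 and Jmjd6 (0.0227 and 0.0256), and Ramp1 to Nsl1 and Kif14 (0.0490 and 0.136). For Crhbp no gene was close, the nearest being Prune2 at 0.43 and Kcnk10 at 0.48. With at most 2 counts of Crhbp in any vehicle library, its distances depend on the prior count and on counting error. The measure takes in the group difference, and no shared function is read from it.

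The other genes of the pathway are no members. For them the test of the fit is given, beside the 49.9% of all genes that passed. These lists too were chosen with earlier results of these data known, and genes were named mostly by lowest adjusted p. Their adjusted p values therefore describe the contrast and are no independent support. Of 12 further class B receptor genes 3 passed the filter and all 3 rose, where 24.8% of all genes tested did. Their median log2 fold change was 1.06, against 0.01 for all genes. Adcyap1r1, which encodes the PACAP receptor PAC1, rose from 29.5, 37.7 and 36.2 to 47.7, 50.5 and 57.9 CPM (log2 fold change 0.59, SE 0.09, edgeR adjusted p = 2.29e-05). Per kb it was the next class B receptor gene after Calcrl and Pth1r, at 5.54 with vehicle and 8.36 with forskolin. Thus of the 2 PACAP receptor genes counted at appreciable levels, Adcyap1r1 was higher and Vipr1 lower. Glp2r, the receptor gene of glucagon-like peptide 2, rose from 3.40 to 7.06 CPM (log2 fold change 1.06, edgeR adjusted p = 5.79e-05). Gcgr, the glucagon receptor gene, went from 4, 7.5 and 14 counts to 25.5, 18 and 29 counts (log2 fold change 1.66, edgeR adjusted p = 0.0022). With library size, which is partly confounded with group, added to the model, Gcgr no longer passed (edgeR adjusted p = 0.255). Gcgr would not have passed the count filter on its vehicle libraries alone. Its direction is thus partly fixed by the filter, and nothing is read from the count of 3.

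The remaining 9 class B receptor genes had at most 8.5 counts in any library, and 3 of them, Glp1r, Ghrhr and Crhr1, had 0 in all. Crhr2 had 2 counts in all 6 libraries together. Of 11 receptor genes for melanocortins, glycoprotein hormones, relaxins and vasopressin none passed the filter, with at most 7 counts in any library. Both receptor genes for corticotropin-releasing hormone were therefore at or below the counting floor in the libraries in which Crhbp was counted.

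Among 17 further peptide genes only Adm2 passed the filter. It would not have done so on its vehicle libraries alone, so the direction of its change is partly fixed by the filter. Adm2 encodes intermedin, a relative of adrenomedullin that also acts through Calcrl and the RAMP proteins. It rose from 1.40, 0.670 and 1.26 CPM in vehicle A, B and C to 6.93, 8.84 and 7.07 CPM in forskolin A, B and C (log2 fold change 2.79, SE 0.24, edgeR adjusted p = 2.57e-08), opposite in direction to Adm. Adm remained the more abundant: its level per kb was 163 to 337 times that of Adm2 with vehicle and 11.8 to 16.9 times with forskolin. The other 16 peptide genes had at most 7.5 counts in any library. Vip, Adcyap1, Pth and Calcb had 0 counts throughout, Pthlh had 2.5 in all, Calca 1.5, Crh 1, Ucn 3 and Ucn2 26.5. Thus none of Vip, Adcyap1, Pth, Pthlh, Crh and Ucn, which encode ligands of Vipr1 and Pth1r or peptides bound by the Crhbp protein, was above 3 counts in any library.

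**Figure D4:**
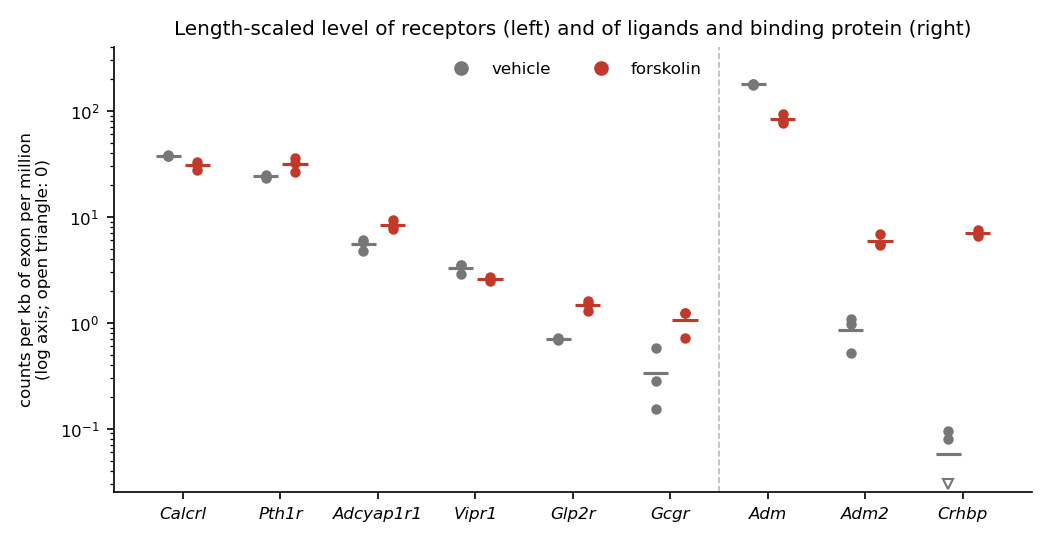
Length-scaled level (RPKM, CPM per kb of exon, log axis) of the class B receptor genes in the fit and of Adm, Adm2 and Crhbp, in each vehicle (grey) and forskolin (red) library; bars are means and the open triangle is a library at 0. Calcrl and Pth1r are the highest receptors in both groups, and Adm, Adm2 and Crhbp move closer together with forskolin.

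Of 15 genes for making or removing the peptides 11 were tested, of which 3 rose and 4 fell, with a median log2 fold change of 0.01. Those not tested, Pcsk1, Pcsk2, Mme and Dpp4, were at or near 0. Pam, which amidates adrenomedullin and other peptides, was the highest per kb (159 in both groups) and was at 646 ± 18.3 and 650 ± 25.05 CPM (edgeR adjusted p = 0.891). The carboxypeptidase genes Cpd and Cpe, which trim peptide precursors, fell from 755 to 382 CPM and from 103 to 59.3 CPM (edgeR adjusted p = 2.13e-12 and 5.38e-10). Ece1, an endopeptidase gene, fell from 421 to 323 CPM (adjusted p = 3.34e-07), and Ide, the insulin-degrading enzyme gene, rose from 88.8 to 101 CPM (adjusted p = 0.00334). Ackr3, which encodes a scavenger receptor that also binds adrenomedullin, was picked out after its values were seen. It rose from 1.93 to 3.46 CPM (edgeR adjusted p = 0.00568).

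Of 14 tested genes for receptor partners, kinases, arrestins and sorting proteins, 5 rose and 3 fell, with a median log2 fold change of 0.08. Arrb1, an arrestin gene, rose from 77.1 to 127 CPM (edgeR adjusted p = 2.3e-07), and the receptor kinase gene Grk5 from 200.1 to 245 CPM (adjusted p = 8.53e-06). Mrap, the melanocortin receptor accessory protein gene, rose from 13.2 to 30.7 CPM (adjusted p = 1.91e-07), while its partner receptor gene Mc2r had 0 counts. Slc9a3r1, which encodes the scaffold NHERF1 that binds PTH1R, fell from 44.8 to 31.0 CPM (adjusted p = 0.000122), in the libraries in which Pth1r was higher. With library size, which is partly confounded with group, in the model, Slc9a3r1 did not pass (edgeR adjusted p = 0.0952). Gnas, the Gs alpha subunit gene, had the highest level per kb of the list and was at 507 ± 22.4 and 529 ± 18.7 CPM (edgeR adjusted p = 0.276). Its locus holds overlapping transcripts, so its count is uncertain.

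Calcrl, Ramp2 and Ramp3 are also strongly expressed by endothelial cells, so endothelial markers were counted in the same libraries. Of 14 markers 9 were tested, of which 5 fell, 1 rose and 3 did not pass. Over all genes tested, 25.1% fell and 24.8% rose. The summed level of the markers was 975 to 1022 CPM with vehicle and 777 to 836 CPM with forskolin. Calcrl was lower too, whereas Ramp2 overlapped between groups and Ramp3 was higher in every forskolin library. Most of the marker sum was Eng, which did not pass (750.4 to 699 CPM, edgeR adjusted p = 0.0652), and Flt4. The defining junction genes Pecam1 and Cdh5 were near 0 in both groups, at 0.379 and 0.375 CPM with vehicle and 0.397 and 0.420 CPM with forskolin, and Emcn was at 0. The genes that fell included the growth factor receptor genes Flt4 (195 to 79.7 CPM) and Flt1 (27.9 to 8.54 CPM), while Stab2, a scavenger receptor gene of sinusoidal endothelium, rose (0.978 to 2.50 CPM). Stab2 would not have passed the count filter on its vehicle libraries alone, nor Kdr, which fell, on its forskolin libraries alone. Smooth muscle is another vascular cell class that can express these receptors. The 5 genes listed as its markers were all lower, summing to 849.5 to 855 CPM with vehicle and 705 to 776 CPM with forskolin. Which cells in the cultures these transcripts came from was not measured. The part of both marker lists in the levels of Calcrl and the Ramp genes was not tested.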

How the data were processed

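RNA-seq of 3 forskolin and 3 vehicle libraries was analysed. The authors deposited estimated counts per gene, unnormalized and in steps of 0.5, made with STAR and HOMER on mm10, per the submitters' processing notes. Their versions and settings, and whether strand was used, are not stated in these notes. Values were rounded to whole counts (ties to the even number). The model was fitted in edgeR 4.0.16 under R 4.3.3, after filterByExpr (at least 10 counts, total 15) and TMM scaling, with group as its only term. The quasi-likelihood test was adjusted by Benjamini-Hochberg over 13357 genes, and SEs come from its F statistic. Profiles used log2 CPM with a prior count of 2. RPKM used the exon lengths in the deposited table. Members and gene lists were chosen with earlier results of these data known. Named genes are the 8 members, the 5 label-check genes, from each pathway list up to 4 genes past the threshold with the lowest adjusted p plus the one highest in RPKM, and, per tested member, the 2 closest profiles among genes with at least 5 CPM in 1 group, predicted gene models left out. Cell type markers and Ackr3 were named outside this rule, after their values were seen. The code was tested on simulated data. Alternatives were other scaling, no filter, DESeq2 1.42.0, a replicate block, library size as a covariate, rounding down, and leaving out each library. Exon overlaps came from GENCODE on GRCm38, and promoters from RefSeq.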

Additional observations from a re-analysis of the deposited data

How the results depend on the processing

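The members kept their direction under all alternatives run, except Ramp1, whose log2 fold change lay between -0.08 and 0.57. Of the 8 members, 3 stayed wholly higher and 3 wholly lower under each change of scaling, filter and rounding, and the higher ones numbered 4 without forskolin A (with Ramp1) and without vehicle B (with Ramp2). Over all genes, 4297 passed with library size as a covariate in place of 6668, and the cause was not tested. Each forskolin library was shallower than each vehicle library, so this covariate is partly confounded with group. With library size alone as scaling, 58.1% of the genes past the threshold were higher, against 49.8% with TMM. Whether the letters pair the libraries was not settled. The deviations of same-lettered libraries from their group means correlated only weakly across genes, at 0.0291, 0.0203 and 0.0377. Each library correlated best with its own letter, but forskolin B only at 0.0203, against 0.0201 with vehicle A. With the replicate block, 6675 genes passed. The share of Ramp2 rests on length scaling: on the CPM scale it was 65.1% with vehicle and 61.8% with forskolin, means of 3 libraries, in place of 84.1% and 79.4%. Gnas passed only with library size alone as scaling (edgeR adjusted p = 0.0366). Counts limit Ramp3 and the vehicle level of Crhbp: without vehicle A, B or C the fitted log2 fold change of Crhbp ran from 6.25 to 7.20.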
